A study of Mus musculus with 4 samples.

Results

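The 6 Skint genes described here (Skint3, Skint4, Skint5, Skint6, Skint9 and Skint10) are 6 of the 24378 gene rows counted in single cells sorted from mouse back skin. They were chosen by name, with the sort difference of Skint5 in these cells already known, so what follows on the sorts is a description and only the comparison by Krt10 was tested. The family's 5 other rows (Skint1, Skint2, Skint7, Skint8 and Skint11) serve for comparison. Of 384 wells, 161 held at least 2000 unique molecular identifiers (UMIs, 1 per captured RNA molecule) of genes and were kept as cells.

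All cells came from the dorsal interfollicular epidermis of female Ivl-CreERT2/R26-tdTomato mice at postnatal day 57, 2 days after intraperitoneal tamoxifen. The labels give the dose as 10 µg per g, and the study's methods state a different one. The involucrin promoter drives the Cre in this model, so tdTomato marks cells in which that promoter was active when tamoxifen was given. Both sorts were live (Sytox blue negative), CD49f+, LY6A+ and CD34- cells, and differed in tdTomato, with 2 libraries of 96 wells each: Tom+ 1 and Tom+ 2, and Tom- 1 and Tom- 2. The kept cells numbered 35, 58, 20 and 48 in that order. Their summed gene UMIs were 157281, 305407, 81630 and 184578, and no well name occurred in more than 1 library. A tdTomato transcript UMI was found in 45.7% and 50.0% of the cells of the Tom+ libraries, against 0.0% and 6.2% in the Tom- libraries, so the transcript followed the labels without marking every sorted cell. The mouse from which each library was made was not given in the labels.

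Skint genes encode membrane proteins of the immunoglobulin superfamily, related to butyrophilins, and are expressed mainly in thymus and skin keratinocytes of rodents. Skint1, the founding member, is needed for the thymic maturation of the gamma delta T cells that later settle in the epidermis as dendritic epidermal T cells. Krt10 encodes a keratin that keratinocytes switch on as they commit to differentiation, also while still in the basal layer, where Krt14 and Krt5 are the main keratins. It was used here to set these CD49f+ cells along that step.

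All 11 Skint genes lie together on chromosome 4 (GRCm38, chr4:111919392-114245028, 2.33 Mb), and no other protein-coding gene is annotated in that interval. Along the chromosome the order is Skint8, Skint7, Skint1, Skint4, Skint3, Skint9, Skint2, Skint10, Skint6, Skint5 and Skint11. Skint9, Skint10, Skint6 and Skint5 are on the minus strand and the others on the plus strand. Skint5 (chr4:113477891-113999503) spans 521.6 kb and Skint6 (chr4:112804616-113286973) 482.4 kb, whereas Skint10 (chr4:112711147-112774866) spans 63.7 kb, Skint9 (chr4:112385969-112433985) 48.0 kb, Skint3 (chr4:112232245-112300468) 68.2 kb and Skint4 (chr4:112072016-112168076) 96.1 kb. Noncoding genes overlap Skint4 (Gm12820 and Gm12815, on the other strand) and Skint6 (Gm12816 and Gm12818 on the same strand, Gm12823 on the other). Reads from Gm12816 and Gm12818 could not be separated from Skint6 with the deposited counts. For the genes on the other strand this depends on whether the counting kept the strands apart, which was not tested.

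The 250 bases before the RefSeq start of Skint5, Skint6 and Skint1 (GRCm38.p6) are printed 5′ to 3′ because Skint5 and Skint6 were the members with the largest share of UMIs in Krt10-high cells, whereas Skint1 had a near-even split. Capitals mark a run of 15 bases shared by these windows, which lie at chr4:113999504-113999753 (minus strand), chr4:113286974-113287223 (minus strand) and chr4:112006019-112006268 (plus strand).
Skint5: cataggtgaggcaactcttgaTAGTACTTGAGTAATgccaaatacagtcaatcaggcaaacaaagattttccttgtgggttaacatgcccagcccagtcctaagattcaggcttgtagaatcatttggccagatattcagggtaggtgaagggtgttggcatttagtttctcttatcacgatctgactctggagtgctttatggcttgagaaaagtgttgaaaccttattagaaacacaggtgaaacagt
Skint6: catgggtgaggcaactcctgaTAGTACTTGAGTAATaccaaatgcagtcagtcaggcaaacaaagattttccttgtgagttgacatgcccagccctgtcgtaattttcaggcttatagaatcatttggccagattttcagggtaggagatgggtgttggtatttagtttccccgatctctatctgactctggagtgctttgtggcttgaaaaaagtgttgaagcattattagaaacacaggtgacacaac
Skint1: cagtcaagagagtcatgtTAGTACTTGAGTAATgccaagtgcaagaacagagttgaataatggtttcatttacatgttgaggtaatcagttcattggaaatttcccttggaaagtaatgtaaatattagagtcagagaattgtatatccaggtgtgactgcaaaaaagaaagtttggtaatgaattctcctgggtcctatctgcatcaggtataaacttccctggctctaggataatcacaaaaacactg
Aligned over the whole window, Skint5 and Skint6 were 88.8% identical, and the next most similar pair of Skint windows 57.8%. By exact shared run the order differed. Skint7 and Skint8 had the longest run, of 51 bases, at 52.2% identity, whereas the longest run of Skint5 and Skint6 was 26 bases. The 51-base run began at -230 from the start of Skint8 and at -52 from that of Skint7, so their windows were offset. The capitalised run occurred, on either strand, in 4 of 32851 promoter windows of the same length (0.0122%), all of them of Skint genes, the fourth being the second start of Skint4. It was thus present before Skint5 and Skint6 and before Skint1, and was not a feature of the Krt10-high members alone.

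Skint10 and Skint9, neighbours in the cluster with Skint2 between them, share a run of 19 bases, in capitals below, that occurred in no other of the 32851 windows. Their windows are chr4:112774862-112775111 and chr4:112433986-112434235, both on the minus strand.
Skint10: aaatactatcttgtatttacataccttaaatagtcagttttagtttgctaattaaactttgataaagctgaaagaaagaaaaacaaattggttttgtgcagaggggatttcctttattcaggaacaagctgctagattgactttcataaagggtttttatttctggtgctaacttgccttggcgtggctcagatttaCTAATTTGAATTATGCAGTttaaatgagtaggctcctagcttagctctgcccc
Skint9: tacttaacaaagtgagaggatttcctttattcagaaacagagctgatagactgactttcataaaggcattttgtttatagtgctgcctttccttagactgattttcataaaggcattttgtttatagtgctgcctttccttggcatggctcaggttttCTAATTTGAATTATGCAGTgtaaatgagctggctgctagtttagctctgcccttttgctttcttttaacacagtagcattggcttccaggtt
Among short motifs searched on both strands, the KLF-type CACCC was found at 1 place before Skint5, at 2 before Skint6 and not before Skint1, Skint10 or Skint9, against 52.0% of all windows with at least 1 match. TATAAA was absent before Skint5, Skint6 and Skint10, present before Skint1 (1 place) and Skint9 (2 places), and present in 12.4% of windows, and the AP-1 motif TGANTCA was absent before all 5 genes printed and present in 6.7%.

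The same likeness extends into the transcripts and bears on the counts. In the first 200 bases of the annotated transcripts, where 5′ UMI reads start, Skint5 and Skint6 were up to 94.0% identical with an exact run of 51 bases, and Skint9 and Skint10 were 85.8% identical with an exact run of 30. Skint7 and Skint8 were up to 84.5% identical with an exact run of 94. Skint11 was up to 85.1% identical to Skint10 and up to 82.0% to Skint9. Reads from such stretches could be assigned to any of the genes that share them. Skint5 and Skint6 are therefore also given as a sum. One UMI stands for 1 molecule counted from its 5′ end, so levels below, in counts per 1000000 gene UMIs (CPM), are not divided by transcript length.

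The members together gave 304 UMIs in 72 of the 161 cells. Skint10 had most (96 UMIs in 34 cells), followed by Skint5 (57 in 26), Skint6 (53 in 27), Skint9 (48 in 23), Skint3 (28 in 14) and Skint4 (22 in 18). Outside the members Skint1 had 55 UMIs in 36 cells, Skint8 42 in 23, Skint7 40 in 31, Skint11 21 in 19 and Skint2 1 in 1. These are low counts, and a few cells carried much of them: 10 cells held 46.7% of the members' UMIs, and the cell with the most (28, of which 19 were Skint10) held 9.21%. The 54 wells that were not empty but had fewer than 2000 gene UMIs, and were left out, held 5 member UMIs in 30056.

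Skint5 stood at 63.6 and 147 CPM in Tom+ 1 and Tom+ 2 and at 12.3 and 5.42 in Tom- 1 and Tom- 2. Both Tom+ libraries were above both Tom- libraries, by 3.71 ± 0.85 (SE) on the log2 scale in the edgeR fit, with 2 libraries per sort and no test because Skint5 was chosen by this difference. Without the cell with the most Skint6 UMIs, which also held the single Skint5 UMI of Tom- 1, the difference was 4.61. In shares of cells, Skint5 was found in 8 of 35 (22.9%) and 16 of 58 (27.6%) cells of Tom+ 1 and Tom+ 2, against 1 of 20 (5.0%) and 1 of 48 (2.1%) of the Tom- libraries.

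Skint10 was also higher in both Tom+ libraries, with 146 and 196 CPM against 61.3 and 43.3, a log2 difference of 1.75 ± 0.49 (SE). Skint5 and Skint10 were thus 2 of the 6 members whose sorts did not overlap, which is read against 20.7% of all 4833 genes with at least as many UMIs as Skint4. The edgeR fit of the sorts called 38 of 3070 genes (1.24%), of which 26 (0.847%) were higher in Tom+, and since the members were chosen with this contrast nothing is read from their place in it. Skint1, which is no member, also had both Tom+ libraries on top (95.4 and 78.6 against 36.8 and 70.4).

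Skint6 stood at 63.6, 111, 98.0 and 5.42 CPM in Tom+ 1, Tom+ 2, Tom- 1 and Tom- 2. The sorts overlapped through 1 Krt10-high cell, which held 7 of the 8 Skint6 UMIs of Tom- 1. Without that cell Tom- 1 stood at 12.8 CPM, below both Tom+ libraries, and the log2 difference was 3.40. With it, the log2 difference of 1.21 ± 0.75 (SE) rested on Tom- 2, since it was -0.03 without that library and 3.85 without Tom- 1.

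For Skint9 the 4 libraries gave 44.5, 98.2, 85.8 and 21.7 CPM, and the sorts overlapped. Its log2 difference of 0.70 ± 0.69 (SE) turned to -0.16 without Tom+ 2 and to -0.10 without Tom- 2. Skint3 (19.1, 62.2, 0 and 32.5) and Skint4 (12.7, 45.8, 24.5 and 21.7) overlapped between the sorts as well. The 6 members summed to 350 and 661 CPM in Tom+ and 282 and 130 in Tom-, that is 506 ± 220 against 206 ± 107 (SD, n = 2 libraries each).

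At least 1 member was detected in 45.7% (16 of 35) and 70.7% (41 of 58) of the cells of Tom+ 1 and Tom+ 2, against 35.0% (7 of 20) and 16.7% (8 of 48) in Tom- 1 and Tom- 2. Counting error alone gave exact (Clopper-Pearson) 95% intervals of 28.8 to 63.4%, 57.3 to 81.9%, 15.4 to 59.2% and 7.5 to 30.2%. Between the sorts these overlapped except for Tom+ 2 and Tom- 2. They hold no spread between libraries, so no difference of the sorts is read from them. After thinning each cell to 2000 UMIs the shares were 42.9%, 44.8%, 25% and 14.6%. With 2 libraries against 2, no exact permutation test can give a two-sided p below 0.333.

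The sorts also differed in their content of Krt10 cells. Cells with at least 6 Krt10 UMIs of 2000 (Krt10-high, the study's own cut) were 25 of 35, 37 of 58, 3 of 20 and 4 of 48, in all 69 cells, of which 12 had 6 to 8 such UMIs. The other 92 (Krt10-low) comprised 51 with 0 Krt10 UMIs and 41 with 1 to 5, of which 18 had 3 to 5. The next comparison asked whether Skint levels differed between these classes within each library. The edgeR fit has library as a block, but the ratios pooled over libraries do not, and class and sort overlap (62 of the 69 Krt10-high cells were Tom+, and 61 of the 92 Krt10-low cells Tom-). Each pooled ratio therefore also holds the difference between the sorts, and the ratio in Tom+ cells alone is given beside it.

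Skint5 was detected mostly in Krt10-high cells. It stood at 95.3, 202, 59.4 and 63.1 CPM in the Krt10-high cells of Tom+ 1, Tom+ 2, Tom- 1 and Tom- 2, and at 0, 21.6, 0 and 0 in their Krt10-low cells. Krt10-high was above Krt10-low in all 4 libraries, although 1 UMI made up the value of each Tom- library. Of all 57 Skint5 UMIs, 55 were in Krt10-high cells, a ratio of 29.7 per UMI sequenced with a 95% counting interval of 7.85 to 252. In Tom+ cells alone the counts were 53 and 2 UMIs and the ratio 12.1 (3.19 to 103). By cells, 25 of 69 Krt10-high cells (36.2%) and 1 of 92 Krt10-low cells (1.09%) had a Skint5 UMI. Among the 51 cells with 0 Krt10 UMIs after thinning, Skint5 was detected in 0 at full depth. There 3 counts set an upper limit of 5.88% on the share of cells with a Skint5 UMI. Some of these cells did have Krt10 UMIs at full depth (8 in 1 Tom+ 2 cell), so they were not all without Krt10. At these depths a cell without a UMI may still express the gene.

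Skint6 had the same distribution in Tom+ cells, with 95.3 and 160 CPM in the Krt10-high cells and 0 in the Krt10-low cells of both libraries. In Tom- 1 it stood at 416 in Krt10-high cells, all of it from 1 cell, and 15.4 in Krt10-low cells, and in Tom- 2 at 0 and 5.93, so that Tom- 2 alone went the other way, on a single UMI. Over all libraries 51 of 53 UMIs were in Krt10-high cells (ratio 27.6, counting interval 7.25 to 234). In Tom+ cells alone Krt10-high was 6.70-fold higher when 3 UMIs over the group were taken as the floor for 0. The counting interval of the ratio in Tom+ cells reached down to 5.22. A Skint6 UMI was found in 25 of 69 Krt10-high and 2 of 92 Krt10-low cells. Counted as 1 gene, Skint5 and Skint6 had 106 UMIs in Krt10-high and 4 in Krt10-low cells, a ratio of 28.6 (10.9 to 107), and 97 and 2 in Tom+ cells alone (22.1, 5.97 to 185).

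Skint10 was higher in Krt10-high cells and was also found in Krt10-low cells. Its levels in Krt10-high and Krt10-low cells were 162 and 115 CPM in Tom+ 1, 254 and 64.7 in Tom+ 2, 238 and 15.4 in Tom- 1, and 505 and 0 in Tom- 2. Krt10-high was on top in each library, by least in Tom+ 1. The pooled ratio was 6.90 (3.82 to 13.5) over all libraries and 2.70 (1.45 to 5.47) in Tom+ cells alone. By cells, 26 of 69 (37.7%) Krt10-high and 8 of 92 (8.70%) Krt10-low cells had Skint10.

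The remaining members had lower pooled ratios. Skint9 had a pooled ratio of 2.38 (1.26 to 4.71), Skint3 of 2.28 (0.98 to 5.73) and Skint4 of 2.32 (0.89 to 6.71), and the intervals of the last 2 included a ratio of 1. In Tom+ cells alone Skint3 was at 2.89 (0.85 to 15.3), Skint9 at 2.36 (0.97 to 6.92) and Skint4 at 1.37 (0.42 to 5.83), so there Skint3 and Skint9 lay close to Skint10. Skint5 and Skint10 were the members with Krt10-high above Krt10-low in all 4 libraries, where 8.67% of the 4833 genes were. Among the other Skint genes Skint8 shared that pattern, with a pooled ratio of 2.41 (1.21 to 5.05). In Tom+ cells alone it had 26 UMIs in Krt10-high and 1 in Krt10-low cells (ratio 11.9, 1.95 to 487), next to the 12.1 of Skint5, and Skint7 had a ratio of 5.48 (1.36 to 47.8). A high ratio in Tom+ cells was thus not found in Skint5 and Skint6 alone, although reads of Skint7 and Skint8 could be assigned to either of these. Skint1, in contrast, had 26 UMIs in Krt10-high and 29 in Krt10-low cells over all libraries (ratio 0.97, 0.55 to 1.70).

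**Figure D1:**
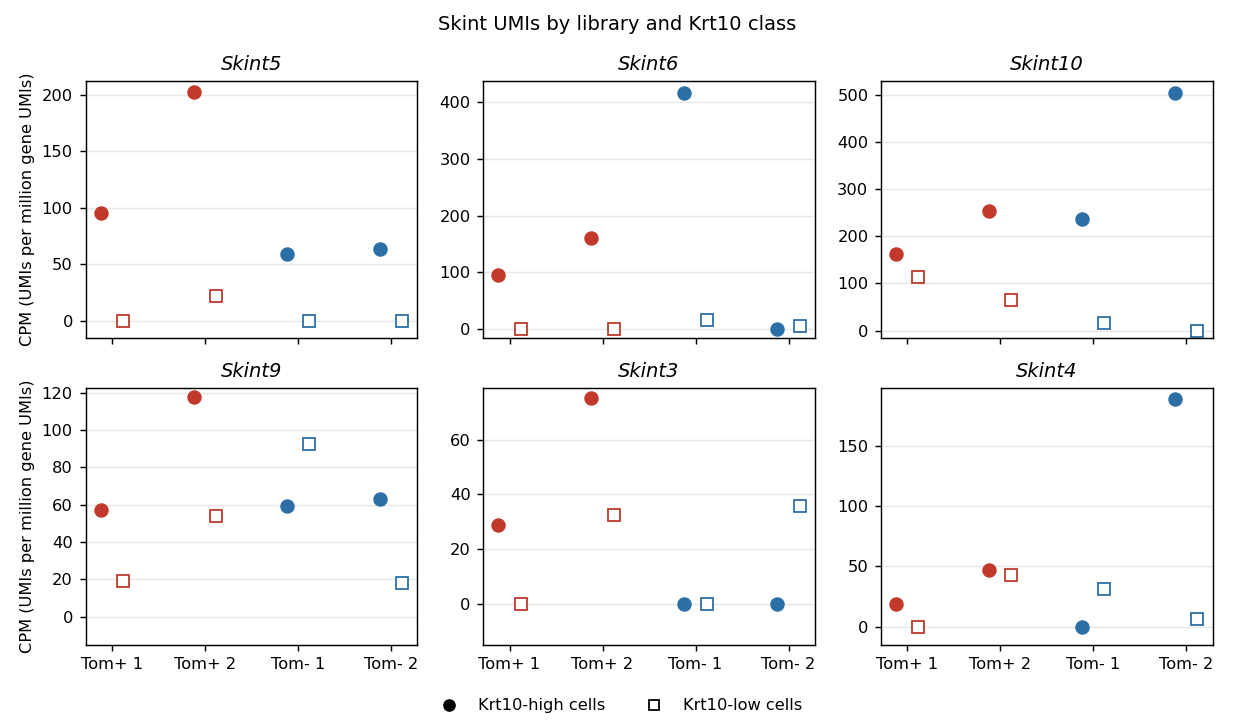
Level of each member, in CPM, in the Krt10-high and Krt10-low cells of each library. Skint5 and Skint6 are at or near 0 in Krt10-low cells, while Skint10 is also present in the Krt10-low cells of both Tom+ libraries (115 and 64.7).

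**Figure D2:**
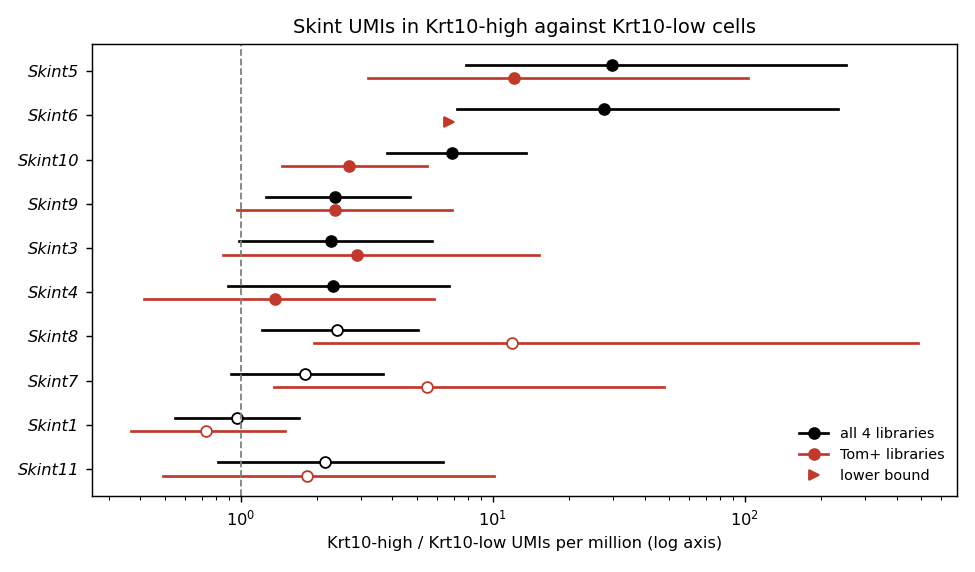
Ratio of UMIs per UMI sequenced in Krt10-high over Krt10-low cells on a log axis, with 95% counting intervals, for members (filled) and other Skint genes (open), over all 4 libraries (black) and in Tom+ libraries (red). The arrow for Skint6 marks 6.70, with 3 UMIs taken as the floor for 0, where the counting interval reached down to 5.22. Skint1 lies at 0.97 over all libraries.

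Summed per library and class and tested with edgeR's quasi-likelihood test, 149 of 1806 genes (8.25%) passed an adjusted p of 0.05, of which 62 (3.43%) were higher in Krt10-high cells. Of the 6 members, 2 passed the filter on low counts, and both were called higher. Skint6 rose by 4.26 ± 1.15 (SE) on the log2 scale (edgeR, adjusted p = 0.0116) and Skint10 by 2.49 ± 0.66 (adjusted p = 0.00975). The Skint6 value depended on the cells used. It was 2.35 with another thinning seed (edgeR, adjusted p = 0.101), 2.74 with a minimum of 1000 UMIs per cell (adjusted p = 0.107), 2.43 without cells with T-cell or Langerhans markers (adjusted p = 0.172) and 2.59 without the 5% of cells with the most UMIs (adjusted p = 0.0417). Without the Tom- 1 cell that held 7 Skint6 UMIs, an alternative chosen after the data were seen, Skint6 no longer passed the filter, and Skint10 was at 3.09 (adjusted p = 9.30e-05). The other 4 members had too few UMIs to be kept, and which members are kept depends in part on their level in the Krt10-high sums, so the number called of those kept describes the members only in part.

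Without the filter all 6 members were fitted, and the calls of Skint6 (edgeR, adjusted p = 0.0155) and Skint10 (adjusted p = 0.0285) held. Skint5 was at 3.86 ± 1.08 (SE) with an adjusted p of 0.0599 in that edgeR fit. Of the 7 alternatives that fitted Skint5, 5 called it, with log2 differences of 3.25 to 4.12 over the 7 and adjusted p from 0.0053 to 0.0599. Skint4 (1.20 ± 1.09), Skint3 (0.77 ± 1.15) and Skint9 (0.74 ± 0.83) were not called. The members' median difference was 3.58-fold (log2 range 0.74 to 4.10), against 0.90-fold over all genes fitted. Among the other Skint genes none was called, with log2 differences of 1.45 for Skint8, 1.19 for Skint2, 1.10 for Skint11, 0.73 for Skint7 and -0.33 for Skint1.

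In the Tom+ libraries alone, an alternative chosen after the data were seen when run without the filter, Skint5 was called at 3.64 ± 0.92 (SE, edgeR, adjusted p = 0.0144), as was Skint6 (adjusted p = 0.00269), where 0.464% of 12279 genes were called higher. Skint10 was at 1.44 ± 0.55 there and was not called (edgeR, adjusted p = 0.474). The call of Skint10 in all libraries was also lost when any 1 of the 4 libraries was left out, with log2 differences of 1.65 to 3.56 and adjusted p from 0.0606 to 0.128 in edgeR. Skint6 lost its call without Tom+ 1 (4.16, adjusted p = 0.105), and it was not kept by the filter without Tom+ 2 or without Tom- 1.

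**Figure D3:**
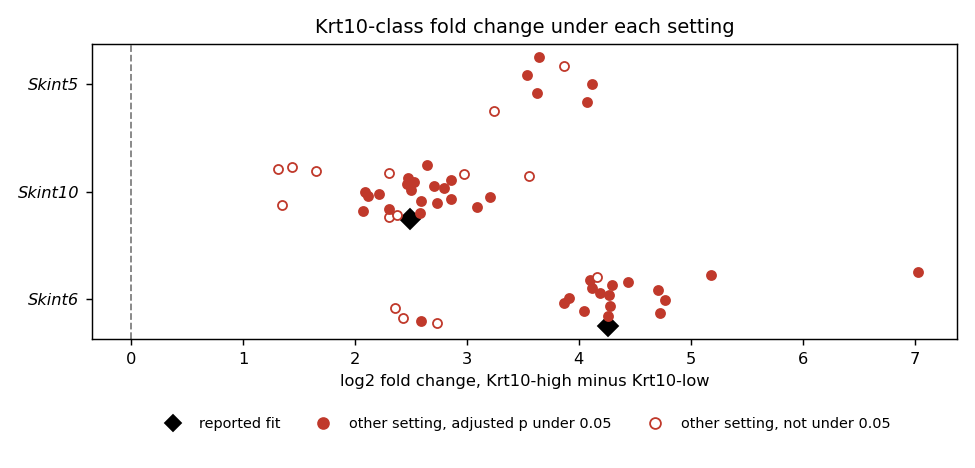
Log2 difference between Krt10-high and Krt10-low cells for Skint6, Skint10 and Skint5 under each setting in which the gene was fitted, with filled points where the adjusted p was under 0.05. All points lie above 0, and the Skint6 point at 7.03 is the fit to Tom+ libraries without a filter, where its Krt10-low counts are 0 and the fitted value is no bound.

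Whether the Krt10 difference itself differed between the sorts was tested as an interaction, which called 3 of 1806 genes (0.166%) and no member. Skint10 had an interaction of -4.61 ± 1.42 (SE) on the log2 scale (edgeR, adjusted p = 0.300), that is a smaller Krt10 difference in Tom+ than in Tom- cells, and Skint6 of 3.21 ± 3.21 (adjusted p = 0.988). The Skint10 value came with its presence in 7 of 31 Krt10-low Tom+ cells and in 1 of 61 Krt10-low Tom- cells. These groups were not alike in Krt10, as 25 of the 31 and 16 of the 61 had 1 to 5 Krt10 UMIs of 2000, and the part of that difference in the Skint10 value was not tested.

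Within a class the sorts overlapped in their summed member level. Krt10-high cells gave 458 and 856 CPM in Tom+ and 773 and 820 in Tom-, although the latter came from 3 and 4 cells. Krt10-low cells gave 134 and 216 in Tom+ and 154 and 65.2 in Tom-. No member had enough UMIs for the edgeR fit of the sorts within Krt10-low cells, in which 3 of 1296 genes (0.231%) were called.

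**Figure D4:**
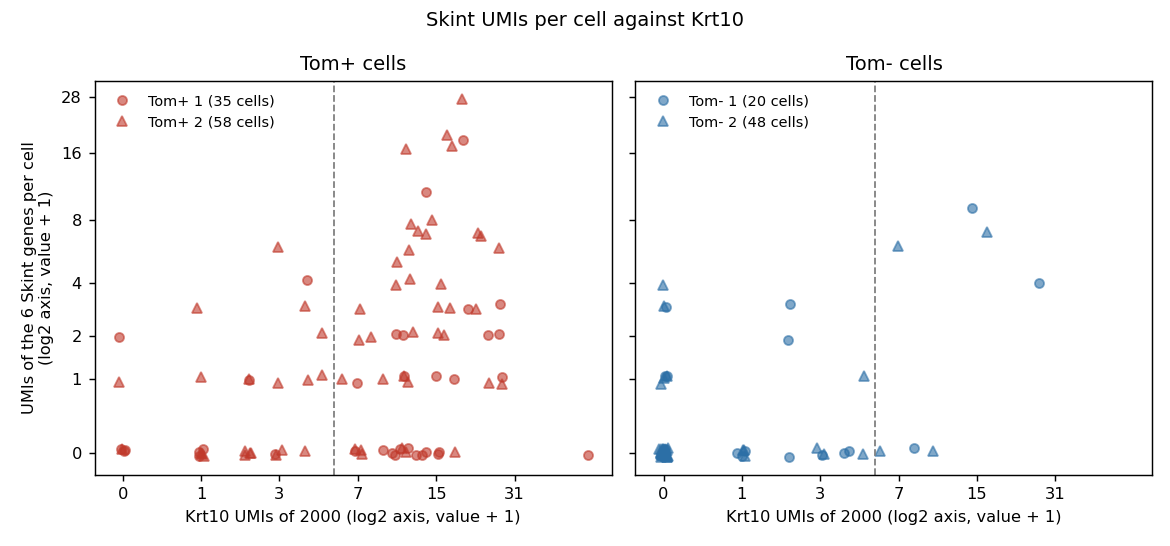
Member UMIs of each kept cell against its Krt10 UMIs of 2000, for Tom+ and Tom- cells. Cells with many member UMIs lie mostly to the right of the Krt10 cut of 6, with the highest cell at 28 member UMIs.

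Krt10-high cells more often held UMIs of several members, and each single member was also detected in a larger share of them. Whether members shared a cell more often than these single shares would give was not tested. Of the 69 Krt10-high cells 36 (52.2%) had UMIs of at least 2 members, against 3 of 92 (3.3%) Krt10-low cells, and after thinning to 2000 UMIs these shares were 27.5% and 2.2%. One Tom+ 2 cell held all 6. Among Krt10-high cells, 13 of the 25 with Skint5 also had Skint6 (52.0%), against 27.3% of those without Skint5, a pair whose reads could be assigned to either gene. Skint10 was found in 10 of the 13 Krt10-high cells with Skint4 (76.9%), against 28.6% of those without it. The other pairs varied. Skint5 was in 53.8% of Krt10-high cells with Skint10 and 25.6% of those without, and Skint6 in 50.0% and 27.9% of the same groups. Skint9 was in 46.2% of cells with Skint4 and 17.9% of those without. Some pairs showed little difference: Skint5 was in 37.5% of cells with Skint9 and 35.8% of those without, and Skint3 in 15.4% of cells with Skint4 and 12.5% of those without. These are counts over cells of 4 libraries that share depth and class, and are given with no test.

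**Figure D5:**
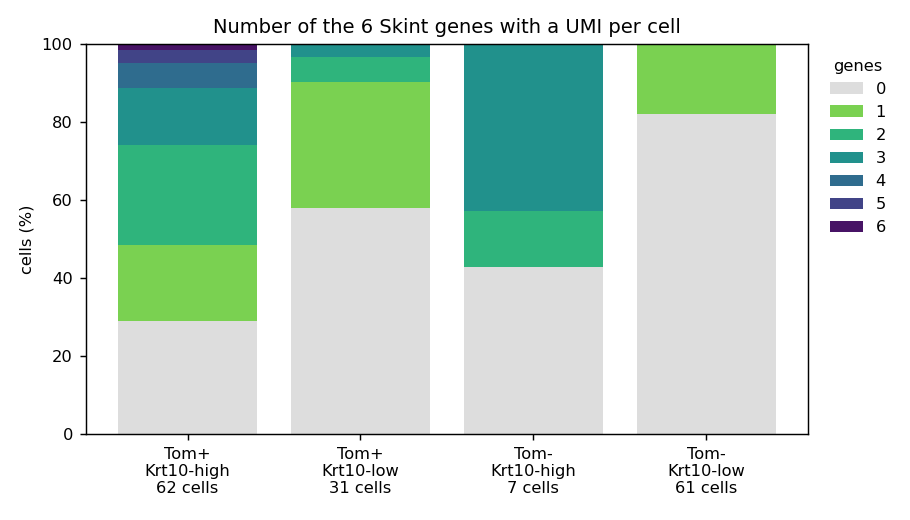
Stacked bars of the share of cells with UMIs of 0 to 6 members, by sort and Krt10 class. In Krt10-low Tom- cells 50 of 61 have none and 11 have 1, while 32 of 62 Krt10-high Tom+ cells have at least 2.

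Depth moved with detection. Cells with Skint5 had a median of 6364 gene UMIs and those without it 3696. Within the Krt10-high cells of Tom+ 2, Skint5 was found in 66.7% of the deeper and 15.8% of the shallower cells, split at the median, and at equal depth (2000 UMIs) in 50.0% and 10.5%. In Tom+ 1 the full-depth shares were 50.0% and 15.4%, and 16.7% and 7.7% at equal depth. What part depth had in this spread within the class was not tested. The class difference was present at equal depth: Skint5 was in 21.7% of Krt10-high and 1.09% of Krt10-low cells, Skint6 in 20.3% and 1.09%, and Skint10 in 24.6% and 6.52%.

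Within the Krt10-high class Skint5 also varied with the amount of Krt10. In Tom+ 1 it was in 7 of the 12 cells with more Krt10 than the class median and in 1 of the 13 others. In Tom+ 2 the numbers were 9 of 18 and 6 of 19, a smaller contrast in the same direction. Over all libraries, cells with Skint5 had a median of 15 Krt10 and 1 Krt14 UMIs of 2000 and cells without it of 2 and 21. Krtdap, a secreted protein of differentiating keratinocytes, was found in 88.5% and 42.2% of them.

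By correlation over cells within each Tom+ library (ln of thinned UMIs plus 1, 35 and 58 cells), the gene most like Skint5 among 2136 was Vps35, a retromer subunit (r = 0.61 and 0.27, mean 0.44). Next came Sbsn, the suprabasal secreted protein suprabasin (r = 0.42 and 0.36, mean 0.39). Ndufc1, a subunit of respiratory complex I, had 0.59 and 0.19 (mean 0.39). Smg1, a kinase of nonsense-mediated decay, had 0.62 and 0.15 (mean 0.39), and Camsap3, a microtubule minus-end binder, 0.36 and 0.40 (mean 0.38). Krt10 stood at a mean of 0.29 and Krt14 at -0.21. After thinning, Skint5 was found in 16.7% of the 12 deeper and 7.7% of the 13 shallower Krt10-high cells of Tom+ 1. All 8 Tom+ 1 cells with Skint5 at full depth were Krt10-high, so the Tom+ 1 correlations rested on few cells with Skint5. For the summed members the list was led by H2-T23, the nonclassical class I molecule Qa-1 (r = 0.72 and 0.34, mean 0.53), followed by Sbsn (0.47), Ly6g6c (0.46), Perp, a desmosome-associated membrane protein (0.44), and the desmosomal cadherin Dsg1a (0.43), while Krt14 stood at -0.41. All are descriptions of sparse counts from shared libraries.

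The wider lists place these values. Of 24 suprabasal keratinocyte genes 18 were tested between the Krt10 classes and 17 rose in Krt10-high cells by edgeR, Krt10 itself having set the classes. Their median log2 difference was 2.74, against -0.11 over all genes tested. The largest differences (log2, ± SE) were those of Krtdap (5.51 ± 0.32), the keratin Krt78 (4.25 ± 0.88), the fatty acid elongase Elovl4 (4.09 ± 0.49), the metallothionein Mt4 (3.90 ± 0.32) and Ly6g6c (3.56 ± 0.40). Sbsn (3.22 ± 0.24), Krt1, the partner keratin of Krt10 (3.0 ± 0.32), Them5 (2.88 ± 0.74), the lipid carrier Fabp5 (2.59 ± 0.50) and Calm4 (2.51 ± 0.40) followed. The Skint6 difference of 4.26 fell within this range, but rested on 53 UMIs. Its SE was larger than those of the suprabasal genes named here, and its value depended on the cells used, as given above. Of 20 basal genes 17 were tested (median -1.31) and 10 fell, led by Krt14 (-3.51 ± 0.30), the integrin subunit Itga3 (-3.16 ± 0.70), Postn (-2.89 ± 0.71), Thbs1 (-2.71 ± 0.37) and Ifitm3 (-2.53 ± 0.29). Then came Lamb3, a laminin chain (-2.39 ± 0.50), Itgb1 (-1.91 ± 0.62), the hemidesmosomal collagen Col17a1 (-1.29 ± 0.20), Krt5 (-1.25 ± 0.15) and Itga6, the gene of CD49f (-0.96 ± 0.29). No granular-layer gene passed the filter.

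Related genes were read from fixed lists. Of 20 genes listed as other Skint or butyrophilin family genes, 19 were matched and none was kept by the filter. Of 34 epidermal ligands and cytokines that resident T cells read, 30 were matched and 9 were tested (median log2 difference -0.29), of which Icam1, an adhesion molecule for leukocytes, fell in Krt10-high cells (-2.99 ± 0.83 SE, edgeR, adjusted p = 0.0152) and none rose. The most counted was Cdh1, the E-cadherin gene, with 325 UMIs in 109 cells.

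Markers of other skin cells were counted beside these results. The 16 matched markers of dendritic epidermal T cells summed to 38.1 and 305 CPM in Tom+ and to 0 and 206 in Tom-, and 3 cells had at least 3 of them. Langerhans cell markers summed to 197 and 160 in Tom+ and 172 and 70.4 in Tom-, with Mfge8, Csf1r and Lyz2 at 0. The 5 cells with at least 3 markers of either list held 7 of the 304 member UMIs. Without these cells Skint10 was called (edgeR, adjusted p = 0.0163), and Skint6 was at 2.43 with an adjusted p of 0.172 in edgeR. Endothelial Cdh5, Kdr, Emcn and Cldn5, fibroblast Col3a1, Lum and Pdgfra, melanocyte Dct, Mlana, Kit and Ptgds, and bulge Cd34, Lgr5 and Col6a2 were at 0 in all kept cells. Other markers of these lists were counted: the bulge list summed to 44.5 and 167 CPM in Tom+ and 233 and 217 in Tom-, the fibroblast list to 50.9 and 22.9 against 36.8 and 135, the melanocyte list to 0 and 22.9 against 12.3 and 0, and the endothelial list to 12.7 and 0 against 0 and 0. Their part in the Skint values was not tested. Infundibulum and upper follicle markers summed to 674 and 2259 CPM in Tom+ and to 1470 and 1577 in Tom-. Cells with at least 3 of these markers numbered 5 and 28 in Tom+ and 4 and 16 in Tom-. No fit left these cells out, and their part in the Skint values was not tested. Of the markers, 5 were tested between the Krt10 classes in edgeR, with Cst6 higher (2.66 ± 0.79 SE) and Krt17 lower (-1.46 ± 0.36) in Krt10-high cells.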

How the data were processed

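The authors sorted cells into Fluidigm C1 chips, made 5′ tagged libraries (STRT) and deposited counts of UMIs per gene and well, not normalized. The builds named in the submitters' processing notes are mm10 and GRCm38. The aligner settings and the treatment of reads that match several genes were not given in the sources used here.

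Wells with at least 2000 gene UMIs were kept as cells. Each was thinned without replacement to 2000 UMIs (seed 1), and Krt10-high means at least 6 Krt10 UMIs of 2000, which is the study's cut on its ln(UMI + 1) scale. No doublet caller was run. An alternative left out the 5% of cells with the most UMIs. Full counts were summed per library and class, or per library, and fitted with edgeR 4.0.16 in R 4.3.3 (TMM, filterByExpr, glmQLFit and glmQLFTest, Benjamini-Hochberg over all genes tested, threshold 0.05), with library as a block for the class comparison. DESeq2 1.42.0 was an alternative. Replicates are 2 libraries per sort. The study names 2 mice for these sorted cells, but the sources used here do not say which library came from which mouse, so p-values measure only the spread between these libraries. Intervals are Clopper-Pearson or exact intervals of a ratio of counts at 95%. Intervals and floors (3 counts) cover counting error only. Depth limits the text throughout, since the members have 22 to 96 UMIs each. The scripts were tested on simulated data.

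The members, gene lists and tests were chosen with earlier results of these data known. Named genes were the members and other Skint rows, Krt10 and Krt14, up to 10 genes per direction of each fixed list that passed between the Krt10 classes, and the 5 genes most like Skint5 and the summed members. Vps35 and the like were ranked among genes with a UMI in at least 20 kept cells after thinning. The Gm genes that overlap members, Skint4's second start, Krtdap in cells with Skint5, and the markers given at 0 were added to these. Gene positions are from the GRCm38 annotation and sequences from RefSeq. Promoters were 250 bases before the start.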

Additional observations from a re-analysis of the deposited data

How the results depend on the processing

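The log2 difference between Krt10-high and Krt10-low cells was positive for Skint6 in 21 of 21 fits that tested it and for Skint10 in 28 of 28, and the calls held in 17 and 19 of them. Skint5 was positive in 7 of 7 and called in 5. Settings in which the filter dropped the gene are not counted here. Passing the filter depends in part on the level in the Krt10-high sums, which favours a positive sign. The fits also share most of their cells, and 10 settings differ in the thinning seed alone, so the counts are no independent support. Low counts limit these calls.

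The 149 genes called between the Krt10 classes became 58 with a minimum of 1000 gene UMIs per cell, 26 with 5000, 97 without the 5% of cells with the most UMIs, 78 with thinned sums, 90 without cells with T-cell or Langerhans markers, 28 with a Krt10 cut of 1 and 14 with one of 20. They became 74 without the filter on low counts, 35 in Tom+ libraries alone, 84 in those without the filter, and 58 to 119 with 1 library left out. DESeq2's Wald test called 102. The cause was not tested. Of the members, the 2 called became 0 with minimums of 1000 or 5000, thinned sums (no member kept), cuts of 1 or 20 (0 and 1 members kept) and Tom+ libraries alone, 1 without cells with T-cell or Langerhans markers, 1 without the cell with the most Skint6 UMIs (Skint6 not kept), 1 to 3 over 10 other seeds and 0 to 1 with 1 library left out.

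The sort fit called 38 genes, 8 with the minimum of 5000, 25 without the cell with the most member UMIs, 27 to 65 with 1 library left out and 28 in DESeq2's Wald test. The interaction called 3 genes, and 0 to 3 with 1 library left out. The sorts within Krt10-low cells gave 3 genes, and 3 to 4. The difference in the share of cells with any member was 32.4 percentage points, 53.2 with the minimum of 5000 and 19.9 to 44.9 with 1 library left out.

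The labels give libraries of both sorts the same run tags, without saying that a tag marks a mouse, although the sorted cells came from 2 mice, and the deviations of same-tag libraries correlated at r = 0.13 over 3070 genes. With the run tag as a replicate block 116 genes were called between the sorts. Without the library as a replicate block in the Krt10 comparison 108 genes and 1 member were called.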
